A study of Mus musculus with 9 samples.

Results

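The Wnt ligands and their cell-surface receptors form a set of 33 mouse genes, given as a list of symbols: 19 genes for Wnt ligands, 10 for Frizzled receptors, and Ror1, Ror2, Lrp5 and Lrp6. All 33 were found among the 54532 genes of the deposited table, and each had at least 1 read. Wnts are secreted, lipid-modified glycoproteins that bind the extracellular domain of Frizzleds. With Lrp5 or Lrp6 as co-receptor, binding stabilizes beta-catenin, which then acts with Tcf and Lef factors on target genes, whereas Ror receptors take part in signaling that does not use beta-catenin and orients cells in a tissue. In limb skeletal development, beta-catenin signaling is known to restrain cartilage formation, and Wnt4, Wnt9a and Wnt16 are known as genes of the early joint.

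RNA with poly(A) tails was sequenced from knees of mouse embryos at E14.5, in midgestation. Every embryo carried 1 modified copy each of Creb5, written Creb53XHA-P2A-tdTomato/+, and Sox9, written Sox9iresEGFP/+, so that red tdTomato reports Creb5 and green EGFP reports Sox9. Creb5 is a transcription factor of the CREB and ATF family, and Sox9 is the transcription factor that directs cartilage formation. Cells freed with collagenase were sorted into GFP-only cells, cells with both colors (double-positive) and RFP-only cells, 3 libraries each, from litters 1, 2 and 5. The deposited knee values are labeled as leaving out other litters. There is no group without the reporter alleles, each library mixes the sorted cells of a litter, and the color gates, not a cell type, define the groups. In bulk RNA, fewer cells of a type and less RNA per cell cannot be told apart.

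Values are the authors' normalized counts, in which the reads of each library are scaled by a factor of that library. Totals ran from 25199258 to 47079305 reads per library. For Creb5 the mean was 203 in the GFP-only libraries, 3044 in double-positive and 2960 in RFP-only cells, and Sox9 averaged 28910, 23473 and 1618, so both follow the colors that defined the groups. Marker lists showed what else the gates held. The summed level of 5 cartilage genes was 1054283 to 1561914 in GFP-only, 214896 to 622945 in double-positive and 3366 to 8643 in RFP-only libraries. Sums of 7 joint interzone genes were 5940 to 6382, 45291 to 98582 and 33055 to 38079 in the same order. Sfrp2 made up most of these sums, at 26381 to 30448 in RFP-only libraries. From GFP-only to RFP-only cells 5 of the 7 genes rose, while Gdf5 and Barx1 fell. Gdf5 had 793, 995 and 1385 in GFP-only and 571, 130 and 668 in RFP-only litters 1, 2 and 5. Barx1 had 309, 246 and 358, then 117, 78.1 and 160. For 6 tendon and connective tissue genes the sums were 2302 to 3414, 10756 to 20825 and 21693 to 26291, and for 7 skeletal muscle genes 547 to 1377, 938 to 2755 and 7418 to 29944. Endothelial sums (6 genes) were 340 to 891, 766 to 3894 and 3563 to 4605, and those of 6 blood and immune genes were 61.2 to 252, 1039 to 7766 and 659 to 2252. Each of these lists had all of its genes above 0 in every library, except that Pax7 (muscle) was at 0 in GFP-only litter 1, Ptprc (blood) in GFP-only litter 1 and Adgre1 (blood) in GFP-only litter 5. These lists move with the populations, and so with the comparisons that follow; their part in the results was not tested. The GFP-only library of litter 5 stood apart from its replicates: chi-square per degree of freedom against them was 339 and 309, compared with at most 154 for any other pair of replicates.

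Each gene was compared between populations by limma on log2(normalized count + 1), with all 9 libraries in 1 fit and p-values adjusted over the 17764 genes whose mean reached 10. Log2 fold changes are on that scale, which understates the change of low genes, and carry a standard error (SE). A gene was called where the adjusted p was under 0.05. The 3 comparisons share libraries, so their values stand side by side and are not independent of each other. Of the 33 genes 27 were tested, 13 ligands and all 14 receptors. The ligands left out, Wnt1, Wnt3a, Wnt7a, Wnt8a, Wnt8b and Wnt9b, did not exceed 19 normalized counts in any library, and Wnt9b had 1 read in all 9.

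**Figure D1:**
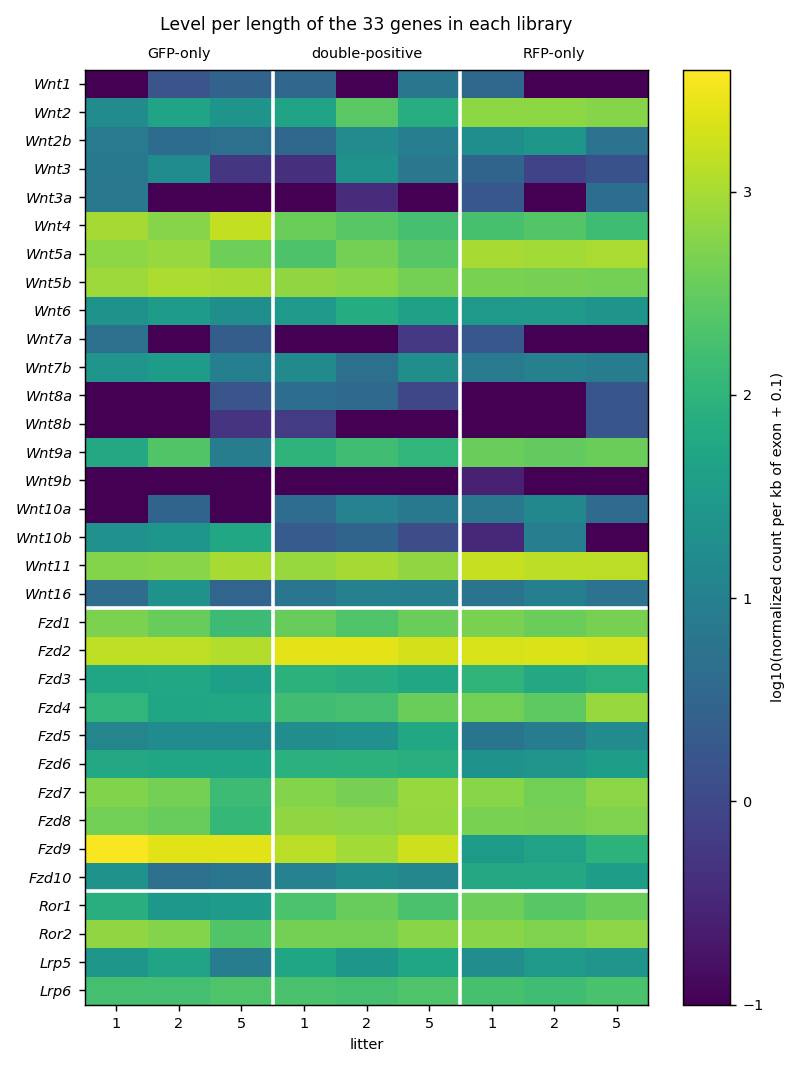
Level of the 33 genes in each library, as log10 of the normalized count per kilobase of exon plus 0.1, with columns grouped by population and numbered by litter, and white lines between ligands, Frizzleds and the Ror and Lrp genes. Fzd9 goes from the brightest row in GFP-only cells to 57.5 per kilobase in RFP-only cells, Fzd2 is bright throughout, and the 6 untested ligands are dark.

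RFP-only cells differed from GFP-only cells in 13 of the 27 tested genes, 8 higher and 5 lower. Of all tested genes 20.3% were called in this comparison, 11.8% higher and 8.48% lower, against 48.1% of these 27. Among ligands, Wnt2, Wnt9a, Wnt10a and Wnt11 were higher and Wnt4, Wnt5b and Wnt10b lower, while Fzd2, Fzd4, Fzd10 and Ror1 were higher and Fzd6 and Fzd9 lower among receptors. Double-positive cells differed from GFP-only cells in 5 genes (18.5% of the 27): Fzd2, Fzd4, Fzd8 and Ror1 were higher and Wnt4 lower, where 8.29% of all tested genes were called, 5.27% higher and 3.02% lower. Against RFP-only cells, 4 genes were called in double-positive cells (14.8% of the 27), Fzd6 and Fzd9 higher and Wnt2 and Wnt5a lower, where the share of all tested genes was 2.85%, with 1.80% higher and 1.05% lower. The median log2 fold change of the 27 was 0.58, 0.59 and 0.12 in the order double-positive over GFP-only, RFP-only over GFP-only and double-positive over RFP-only, beside 0.04, 0.05 and -0.01 for all tested genes. In all, 15 members were called at least once (8 ligands, 6 Frizzleds and Ror1) and 12 never.

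**Figure D2:**
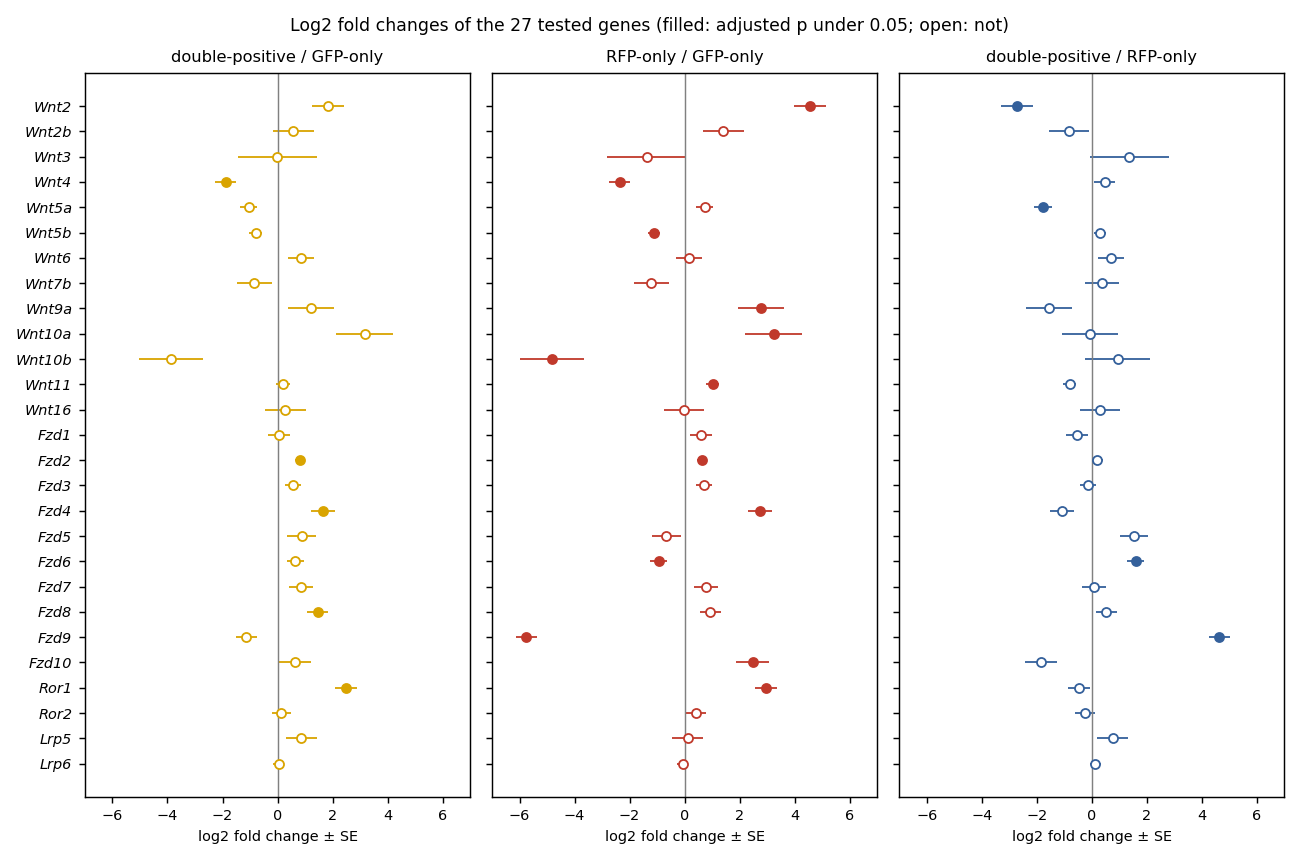
Log2 fold change with its standard error (bars) for the 27 tested genes in the 3 comparisons, from limma on log2(normalized count + 1); filled points passed an adjusted p of 0.05. Fzd9 lies farthest from 0 in both comparisons with RFP-only cells, at -5.76 and 4.63, and Lrp6 lies within 0.12 of 0 in all 3.

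Among ligands, Wnt2 (ENSMUSG00000010797, chr6:17988940-18030585, minus strand), known for its part in lung formation, differed most upward. Coordinates are of the whole gene in GRCm38. Its normalized counts in litters 1, 2 and 5 were 36.4, 109 and 54.3 in GFP-only, 108, 589 and 165 in double-positive and 1502, 1488 and 1330 in RFP-only cells. All 3 RFP-only libraries lie far above the other 6, whereas the double-positive and GFP-only libraries overlap narrowly. The log2 fold change was 4.56 ± 0.58 (SE) for RFP-only over GFP-only (adjusted p = 0.00036) and -2.71 ± 0.58 for double-positive over RFP-only (adjusted p = 0.0322). For double-positive over GFP-only it was 1.85 ± 0.58 (adjusted p = 0.0743), and it passed with the litter as a block (adjusted p = 0.0343), without GFP-only litter 2 (adjusted p = 0.0461), without double-positive litter 1 (adjusted p = 0.0483) and by DESeq2 (adjusted p = 0.0043). The double-positive library of litter 2 was the highest of its group for Wnt2 and for several marker sums. These were tendon and connective tissue genes, 20825 against 10756 and 11907, and endothelial genes, 3894 against 766 and 2006. Erythroid genes followed the same order, at 37662 against 5270 and 16810, as did Schwann cell and neuron genes, at 4293 against 2796 and 3668. Epidermal genes summed to 1877 against 1479 and 1667. Its muscle, blood and immune, pericyte and smooth muscle, interzone and cartilage sums were not the highest. The pericyte and smooth muscle sum was mostly Cspg4, at 4545, 6210 and 11409 in double-positive litters 1, 2 and 5. Of that list Rgs5, Kcnj8, Abcc9 and Acta2 were highest in litter 2 of this group, and Cspg4, Mcam and Myh11 in litter 5. In RFP-only cells litter 1 had the highest Wnt2 and the lowest tendon and endothelial sums, 21693 and 3563. Its erythroid, Schwann cell and epidermal sums were not the highest of that group, and its Rgs5, Kcnj8, Abcc9 and Acta2 values were the lowest. The call against RFP-only cells was lost without double-positive litter 1 or 5 or any 1 RFP-only library, and under 2 other settings, with adjusted p from 0.0807 to 0.129.

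Wnt4 (ENSMUSG00000036856, chr4:137277489-137299726, plus strand), a ligand needed for kidney and female reproductive tract formation and known from joints, went the other way. It stood at 4009, 2423 and 6335 in GFP-only, 1562, 1060 and 731 in double-positive and 753, 981 and 615 in RFP-only cells. Every GFP-only library was above the other 6, and the 2 tdTomato-positive populations overlapped. Wnt4 changed by -1.89 ± 0.37 on the log2 scale for double-positive over GFP-only (adjusted p = 0.0118) and -2.36 ± 0.37 for RFP-only over GFP-only (adjusted p = 0.00132). Between double-positive and RFP-only cells it was 0.47 ± 0.37 (adjusted p = 0.745).

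Wnt5a, the best-known ligand of Ror2 and a factor of limb outgrowth, was lowest in double-positive cells. Its counts were 5242, 6161 and 3041 in GFP-only, 1630, 3407 and 2025 in double-positive and 7718, 7233 and 8037 in RFP-only cells. RFP-only libraries were above all others, and double-positive litter 2 exceeded GFP-only litter 5. Double-positive over RFP-only gave -1.77 ± 0.31 (adjusted p = 0.0122), lost without double-positive litter 1 or 5 or RFP-only litter 5 and without the mean-variance trend (adjusted p from 0.0501 to 0.0627). Against GFP-only cells the values were -1.04 ± 0.31 for double-positive (adjusted p = 0.0644) and 0.73 ± 0.31 for RFP-only cells (adjusted p = 0.123). Without GFP-only litter 5 the first was -1.34 and was called (adjusted p = 0.0145), as it was without double-positive litter 2 (adjusted p = 0.0422) and by DESeq2 (adjusted p = 0.0197).

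Wnt5b (ENSMUSG00000030170, chr6:119432531-119544347, minus strand), the close relative of Wnt5a that maturing chondrocytes are known to make, did not share that pattern. GFP-only libraries had 2268, 2915 and 2657, double-positive 1794, 1627 and 1139 and RFP-only 1252, 1197 and 1170 normalized counts. The GFP-only libraries were the top 3 of 9, and double-positive litter 5 lay below the RFP-only libraries. RFP-only over GFP-only was -1.11 ± 0.23 (adjusted p = 0.00563), and double-positive over GFP-only was -0.80 ± 0.23 (adjusted p = 0.0521), called with a pseudocount of 5, a filter of 50, the litter as a random block and by DESeq2 (adjusted p from 0.0096 to 0.0493).

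Wnt11, a ligand known for cell movements and for branching of the ureteric bud, had 2289, 2529 and 4180 counts in GFP-only cells, 3245, 3983 and 2850 in double-positive and 6376, 5771 and 5397 in RFP-only cells. Only the RFP-only libraries stood clear of the rest. They exceeded GFP-only cells by 1.01 ± 0.25 (adjusted p = 0.0151; 0.0663 without RFP-only litter 1), and double-positive over RFP-only was -0.81 ± 0.25 (adjusted p = 0.131; called without GFP-only litter 5, at 0.015, and with only these populations fitted, at 0.0252).

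Wnt9a, a ligand whose expression marks forming joints, varied most among GFP-only cells. It stood at 202, 747 and 29.8 there, at 321, 511 and 350 in double-positive and at 1176, 1024 and 1222 in RFP-only cells. The RFP-only libraries were all above the other 6, while the GFP-only libraries lay on both sides of the double-positive ones. RFP-only over GFP-only was 2.77 ± 0.84 (adjusted p = 0.0393), lost in 11 alternatives (adjusted p from 0.0554 to 0.13): without GFP-only litter 1 or any 1 double-positive or RFP-only library, with no filter, without the trend, with only these populations fitted and by edgeR, where the fold change was 1.81 (adjusted p = 0.13). Without GFP-only litter 5 the change was 1.55 (adjusted p = 0.0423). Double-positive cells, which had the highest interzone sums, showed 1.21 ± 0.84 over GFP-only (adjusted p = 0.397), and -0.01 without GFP-only litter 5 (adjusted p = 0.995).

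Wnt10a and Wnt10b, close relatives known from teeth and skin appendages and from bone formation, were scarce and moved in opposite directions. Wnt10a had 0, 7.3 and 0 normalized counts in GFP-only cells, 10.6, 26.5 and 17.9 in double-positive and 16.8, 35.1 and 9.8 in RFP-only cells. Wnt10b had 72.7, 88.1 and 195 in GFP-only, 6.7, 10.1 and 3.7 in double-positive and 0.8, 31.7 and 0 in RFP-only cells. For both genes the GFP-only libraries did not overlap either of the other populations. RFP-only over GFP-only was 3.23 ± 1.03 for Wnt10a (adjusted p = 0.047), a call lost in 14 of 21 alternatives and without any 1 library except GFP-only litter 2 (adjusted p from 0.0588 to 0.154). For Wnt10b it was -4.82 ± 1.17 (adjusted p = 0.0143), lost without RFP-only litter 1 or 5 and by edgeR (adjusted p from 0.0564 to 0.0852). Double-positive over GFP-only was 3.17 ± 1.03 for Wnt10a (adjusted p = 0.084) and -3.88 ± 1.17 for Wnt10b (adjusted p = 0.0665). Wnt10a was called there without GFP-only litter 2 (adjusted p = 0.0259) and Wnt10b without RFP-only litter 2 (adjusted p = 0.0193), with a pseudocount of 5, quantile scaling or only these populations fitted and by DESeq2 (adjusted p from 0.0068 to 0.0413). Epidermal genes, which could come with skin, summed to 1011 to 1830 in GFP-only, 1479 to 1877 in double-positive and 1022 to 1621 in RFP-only libraries, with Cdh1 at 0 in GFP-only and RFP-only litter 5.

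The other 5 tested ligands were called nowhere. Wnt6, a neighbor of Wnt10a, had 42.1 to 73.5 in GFP-only, 64.4 to 152 in double-positive and 51.8 to 64.5 in RFP-only cells, so that double-positive and RFP-only libraries touched only at their edges. Wnt7b spanned 24.2 to 173 over the 9 libraries and Wnt2b 14.4 to 114. Wnt16, the other ligand known from the early joint, was low, with 13.6 to 99.2 in GFP-only, 26.9 to 45.2 in double-positive and 23.8 to 41.9 in RFP-only cells, and its log2 fold changes were 0.28 ± 0.74, -0.02 ± 0.74 and 0.30 ± 0.74. Wnt3 ranged from 1.0 to 69.4 within the double-positive group alone, and its SE of 1.43 was the widest of the 27.

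**Figure D3:**
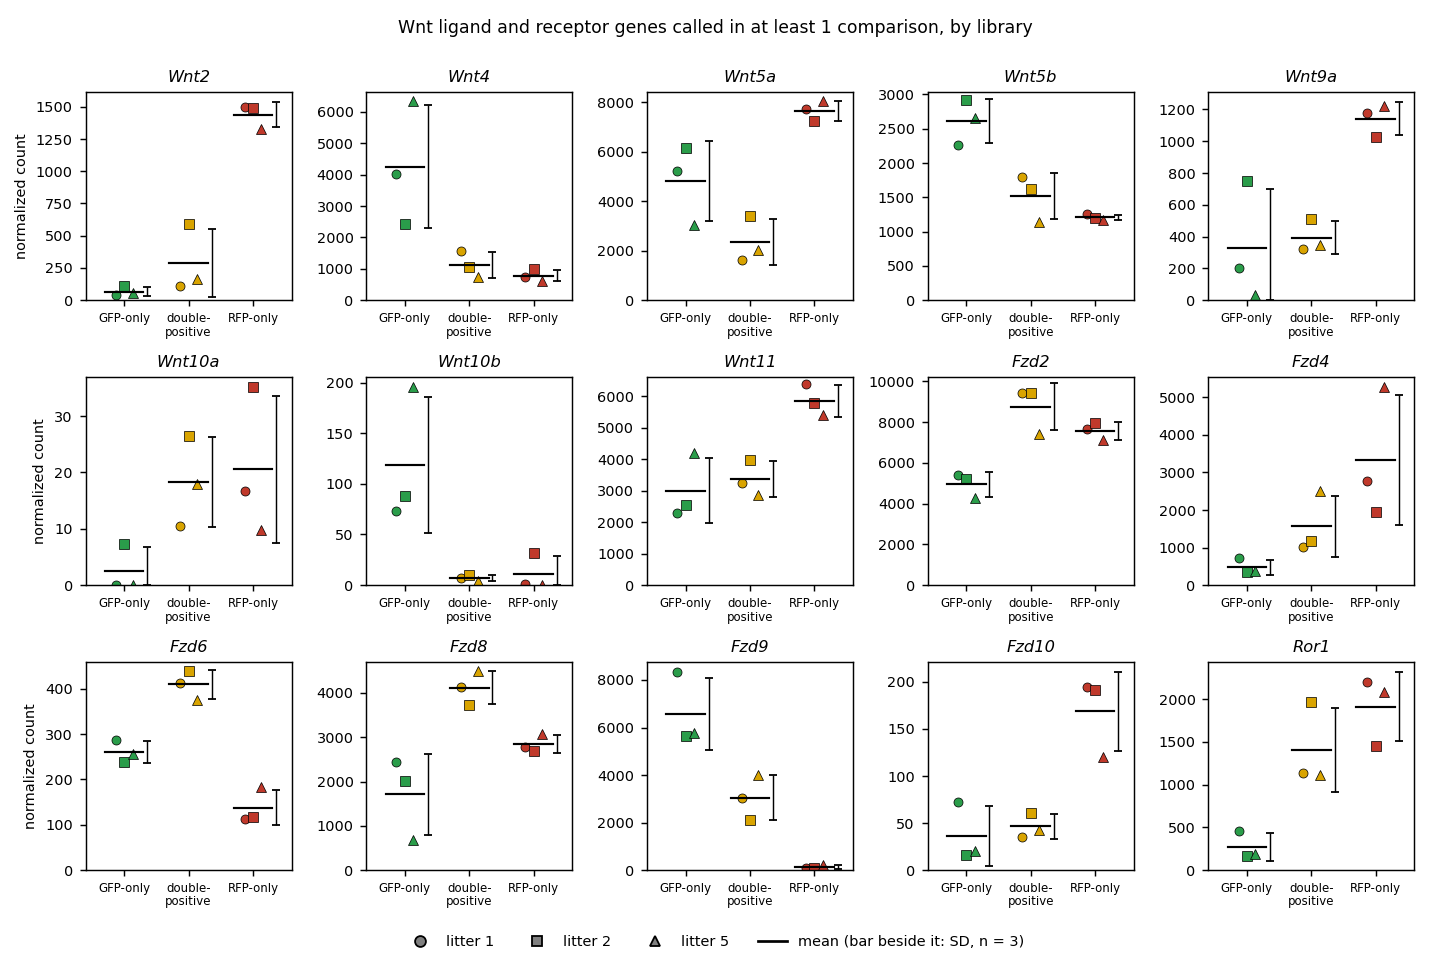
Normalized counts of the 15 genes called in at least 1 comparison, on linear axes from 0; points are libraries, marked by litter, horizontal lines are means and the bar beside each group is the SD (n = 3), clipped at 0. Fzd9 steps down from GFP-only to RFP-only cells, Wnt2 and Wnt9a are highest in RFP-only cells, and Fzd6 and Fzd8 are highest in double-positive cells.

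Of the Frizzleds, Fzd9 (ENSMUSG00000049551, chr5:135248938-135251230, minus strand), a receptor known for its role in bone-forming cells, changed most. Its normalized counts were 8327, 5639 and 5757 in GFP-only, 3023, 2125 and 4012 in double-positive and 74.6, 101 and 220 in RFP-only cells. No 2 populations overlapped. RFP-only over GFP-only was -5.76 ± 0.38 (adjusted p = 6.36e-06) and double-positive over RFP-only 4.63 ± 0.38 (adjusted p = 9.32e-05). The step from GFP-only to double-positive cells was -1.13 ± 0.38 (adjusted p = 0.0957), and within litters it was -1.46, -1.41 and -0.52; it was called without RFP-only litter 5 (adjusted p = 0.0484) and by DESeq2 (adjusted p = 0.0377). Cartilage genes fell along the same order of populations, and their part was not tested. Within groups, double-positive litter 5 was the highest both for Fzd9 and for the cartilage sum (622945 against 225166 and 214896). The other groups did not show this: Fzd9 was highest in GFP-only litter 1 and RFP-only litter 5, and the cartilage sum in litter 2 of both groups (1561914 and 8643).

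Fzd4 (ENSMUSG00000049791, chr7:89404355-89413134, plus strand), which also binds the non-Wnt ligand Norrin and is known from retinal blood vessels, had 710, 356 and 375 counts in GFP-only cells, 1026, 1170 and 2503 in double-positive and 2783, 1948 and 5281 in RFP-only cells. Both tdTomato-positive populations lay above every GFP-only library and overlapped each other, and litter 5 gave the highest value of each of these 2 populations. RFP-only over GFP-only was 2.74 ± 0.44 (adjusted p = 0.00137). Double-positive over GFP-only was 1.66 ± 0.44 (adjusted p = 0.0412), lost in 10 alternatives, among them without GFP-only litter 2 or 5, any 1 double-positive library or RFP-only litter 1 (adjusted p from 0.0513 to 0.129). Endothelial genes, the list closest to the known site of Fzd4, were also higher in RFP-only than in GFP-only libraries; their part was not tested. Within groups their highest sum came from litter 5 in RFP-only cells, as did the highest Fzd4 value, from litter 2 in double-positive cells, where Fzd4 was highest in litter 5, and from litter 2 in GFP-only cells, where Fzd4 was highest in litter 1.

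Fzd2, a receptor that also takes Wnt5a, was among the most abundant. It had 5386, 5225 and 4256 counts in GFP-only cells, 9408, 9438 and 7417 in double-positive and 7688, 7953 and 7103 in RFP-only cells. GFP-only libraries were the 3 lowest of 9, and each litter showed the step, by 0.80, 0.85 and 0.80 for double-positive and by 0.51, 0.61 and 0.74 for RFP-only cells on the log2 scale. The fitted values were 0.82 ± 0.19 (adjusted p = 0.0235; lost without double-positive litter 1 or 2, without the trend and with only these populations fitted, with adjusted p from 0.0618 to 0.0992) and 0.62 ± 0.19 (adjusted p = 0.0396). The second was lost without GFP-only litter 2, double-positive litter 1 or 2 or any 1 RFP-only library, with no filter, without the trend and with only these populations fitted (adjusted p from 0.0563 to 0.127).

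Fzd8, Fzd6 and Fzd5 were the members for which all 3 double-positive libraries exceeded all 6 others, a pattern counted after the values were seen and shared by 2.52% of all tested genes; no member had all 3 below the others, where 1.22% of genes did. Fzd8 had 2451, 2000 and 678 counts in GFP-only cells, 4132, 3734 and 4493 in double-positive and 2787, 2690 and 3076 in RFP-only cells. Fzd6, known for orienting hair follicles, had 288, 239 and 256, then 413, 439 and 376, then 113, 118 and 183. Fzd5, known from eye and gut, had 86.8, 115 and 114, then 126, 147 and 381, then 41.9, 58.9 and 113.

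The tests for these 3 receptors were less uniform than that order. Fzd8 in double-positive over GFP-only cells was 1.46 ± 0.39 (adjusted p = 0.0422), lost with the litter as a block (adjusted p = 0.0505), without any 1 double-positive or RFP-only library and in 11 alternatives in all (adjusted p up to 0.113). Without GFP-only litter 5 it was 0.89 (adjusted p = 0.00914). RFP-only over GFP-only for Fzd8 was 0.93 ± 0.39 (adjusted p = 0.115; called without GFP-only litter 1, at 0.0353). Double-positive cells exceeded RFP-only cells for Fzd6 by 1.60 ± 0.31 (adjusted p = 0.019), lost without any 1 double-positive library or RFP-only litter 1 or 2 (adjusted p from 0.058 to 0.0902). Its value in RFP-only over GFP-only was -0.95 ± 0.31 (adjusted p = 0.0496), lost in 15 alternatives, among them the litter block (adjusted p = 0.0644) and all single libraries left out except RFP-only litter 5 (adjusted p from 0.0507 to 0.173). Fzd5 passed nowhere, with 1.54 ± 0.52 for double-positive over RFP-only (adjusted p = 0.172). The antisense gene Gm38058 shares 1233 bases of exon with Fzd5 and Gm26704 shares 152 with Fzd6, and since the strand setting is not given, their reads cannot be told apart; the mean counts assigned to these neighbors were 3.3 and 4.5. The same limit holds for Wnt5a, which shares 358 bases with Gm2670 (mean 37.4), Wnt11, which shares 364 with Gm8398 (mean 0.5), and Wnt7b, which shares 324 with AU022754 (mean 0).

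Fzd10 had 72.7, 15.9 and 20.4 counts in GFP-only cells, 35.5, 60.8 and 42.6 in double-positive and 194, 191 and 120 in RFP-only cells. Every RFP-only library was above the other 6. RFP-only over GFP-only was 2.47 ± 0.59 (adjusted p = 0.0131; 0.0583 without RFP-only litter 1 and 0.0522 without RFP-only litter 2), and double-positive over RFP-only was -1.84 ± 0.59 (adjusted p = 0.15; 0.0371 with only these populations fitted and 0.0436 by DESeq2).

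Fzd1, Fzd3 and Fzd7 were called nowhere. Fzd3, known for guiding axons, had 503 to 732 in GFP-only, 702 to 1167 in double-positive and 758 to 1310 in RFP-only cells, so RFP-only libraries lay above GFP-only ones with a fold change of 0.70 ± 0.29 (adjusted p = 0.114). Fzd1 and Fzd7, which resemble Fzd2 in sequence, had low values in 1 library. Fzd7 stood at 2464, 1942 and 634 in GFP-only cells and between 1891 and 3507 in the other 6 libraries. Fzd1 stood at 2076, 1396 and 602 in GFP-only cells and between 911 and 2009 in the others.

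Ror1 and Ror2, receptor tyrosine kinase family members that bind Wnt5a, did not move together. Ror1 (ENSMUSG00000035305, chr4:100095791-100444765, plus strand) had 461, 164 and 189 counts in GFP-only cells, 1135, 1969 and 1113 in double-positive and 2206, 1448 and 2085 in RFP-only cells. Both tdTomato-positive populations lay above every GFP-only library, and they overlapped each other. Ror1 was higher by 2.48 ± 0.40 in double-positive (adjusted p = 0.00412) and by 2.95 ± 0.40 in RFP-only cells (adjusted p = 0.00049) than in GFP-only cells. Ror2, mutated in human brachydactyly, had 2922, 2330 and 959 in GFP-only, 1861, 1819 and 2599 in double-positive and 2582, 2213 and 2636 in RFP-only cells, with fold changes of 0.14 ± 0.36 and 0.40 ± 0.36 over GFP-only (adjusted p = 0.835 and 0.454).

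Lrp6, the main co-receptor for beta-catenin signaling in many tissues, was the steadiest member, with 2123 to 2970 counts over all 9 libraries and fold changes of 0.05 ± 0.20, -0.07 ± 0.20 and 0.12 ± 0.20. Its relative Lrp5, known for setting bone mass, had 82.8 to 474 in GFP-only, 264 to 492 in double-positive and 177 to 299 in RFP-only cells, and was not called.

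The low values of GFP-only litter 5 concern several of these receptors. It had the lowest of the 9 values for 10 of the 27 tested members, as for 27.8% of all tested genes, and lay below 50% of the next lowest library for Wnt9a, Fzd7, Fzd8 and Lrp5, as for 8.55% of all tested genes. Without it, the numbers of members called were 5, 11 and 5 in the order double-positive over GFP-only, RFP-only over GFP-only and double-positive over RFP-only.

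The groups did not overlap for 11 of the 27 genes between double-positive and GFP-only cells, where 28.1% of all tested genes had no overlap. For RFP-only against GFP-only cells the count was 16, beside 39.4% of all genes, and for double-positive against RFP-only cells it was 10, beside 23.8%. Of the 22 calls, 9 held in all 22 alternative settings: Ror1 and Wnt4 in both comparisons with GFP-only cells, Wnt2, Wnt5b, Fzd4 and Fzd9 in RFP-only over GFP-only cells, and Fzd9 in double-positive against RFP-only cells.

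To set levels of different genes side by side, counts were divided by kilobases of exon. In GFP-only cells the highest members were Fzd9 at 2867 ± 662 normalized counts per kilobase (SD, n = 3), Fzd2 at 1353 ± 167, Wnt4 at 1015 ± 469 and Wnt5b at 985 ± 123, and the latter 2 overlap. In double-positive cells they were Fzd2 at 2390 ± 316, Fzd9 at 1332 ± 412, Wnt11 at 812 ± 139 and Fzd8 at 690 ± 63.6, of which Wnt11 and Fzd8 lie within their spread. In RFP-only cells Fzd2 (2070 ± 119) was followed by Wnt11 at 1414 ± 119, Wnt5a at 980 ± 51.8 and Wnt2 at 639 ± 42.4, each step being larger than the SDs.

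Summed over all 19 ligands, the level per kilobase was 3582 ± 425 in GFP-only, 2302 ± 496 in double-positive and 4094 ± 173 in RFP-only cells. Over the 10 Frizzleds it was 5402 ± 1298, 5746 ± 538 and 4260 ± 355. The make-up of these sums differed more than their size. Fzd9 was 53.4% ± 5.79 of the Frizzled sum in GFP-only, 22.9% ± 5.07 in double-positive and 1.32% ± 0.683 in RFP-only cells, with no overlap between populations. Fzd2 was 25.5% ± 3.41, 42.1% ± 8.84 and 49.0% ± 6.81, and Fzd4 was 1.30% ± 0.264, 3.99% ± 1.76 and 11.4% ± 5.05.

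On the ligand side, Wnt4 and Wnt5b were 27.9% ± 10.5 and 27.6% ± 3.46 of the sum in GFP-only cells, against 4.56% ± 1.05 and 11.1% ± 0.095 in RFP-only cells. In double-positive cells Wnt4 was 11.7% ± 4.22 and Wnt5b 25.0% ± 4.36, and the Wnt5b shares overlapped those of GFP-only libraries. Wnt2 was 0.827% ± 0.485 in GFP-only, 5.12% ± 3.71 in double-positive and 15.6% ± 0.605 in RFP-only cells. Wnt11 was 35.5% ± 1.84 in double-positive and 34.5% ± 1.44 in RFP-only cells, against 19.9% ± 4.39 in GFP-only cells. Since shares add to 100%, a rise of 1 gene lowers the others. The 4 highest ligands made up 93.1% ± 4.47, 85.2% ± 5.15 and 85.1% ± 0.79 of the sum in the 3 populations.

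**Figure D4:**
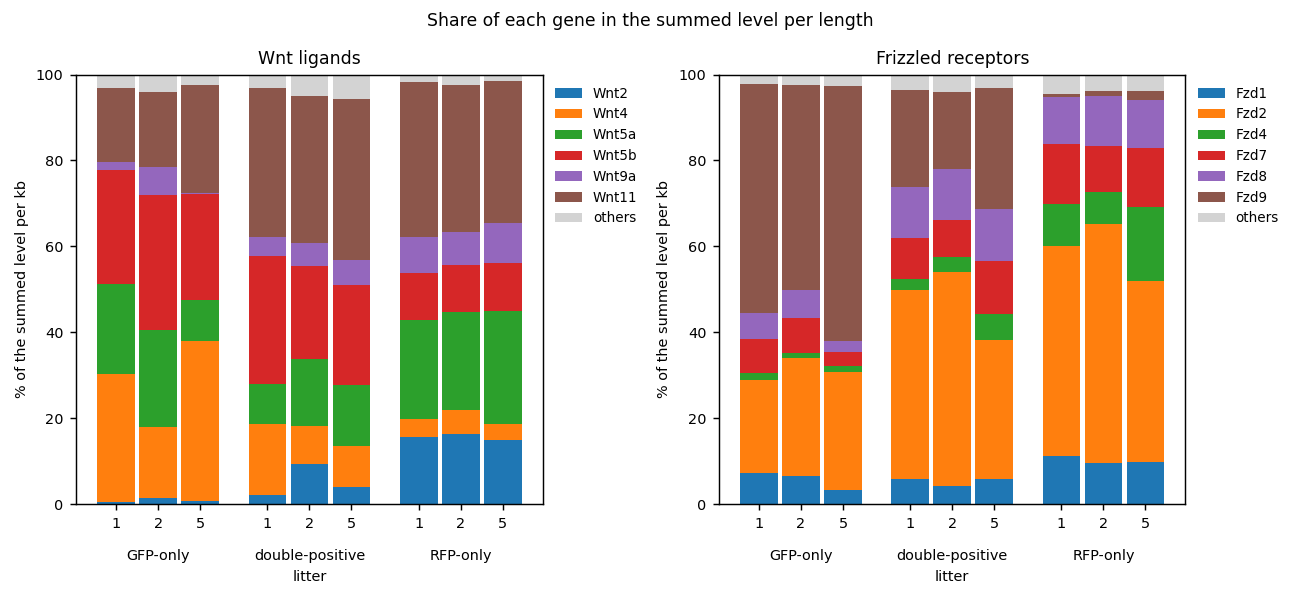
Share of each gene in the summed normalized count per kilobase of exon, in percent, for the 19 Wnt ligands (left) and the 10 Frizzleds (right), 1 bar per library in order of population and litter; genes that exceed 5% in some library are colored and the rest is grey. Fzd9 takes more than any other Frizzled in GFP-only cells and 1.32% on average in RFP-only cells.

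Promoter sequence is shown for genes called in RFP-only against GFP-only cells under every alternative, since these calls held in all settings tried; Wnt5b is left out because it has several listed start sites. Each run is the stretch upstream of both the RefSeq and the GENCODE start site, 5′ to 3′ on the gene's strand, in GRCm38.p6, with sequence from RefSeq. Fzd9 and Wnt4, lower in RFP-only cells, come first, from chr5:135251231-135251297 (minus strand) and chr4:137277385-137277488 (plus strand). Ror1, Wnt2 and Fzd4, higher in RFP-only cells, follow from chr4:100095541-100095790 (plus), chr6:18030586-18030695 (minus) and chr7:89404116-89404354 (plus). Capitals mark matches to the motifs named next.
Fzd9: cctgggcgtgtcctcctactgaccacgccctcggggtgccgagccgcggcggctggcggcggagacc
Wnt4: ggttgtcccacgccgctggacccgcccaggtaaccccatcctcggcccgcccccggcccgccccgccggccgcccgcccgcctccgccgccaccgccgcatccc
Ror1: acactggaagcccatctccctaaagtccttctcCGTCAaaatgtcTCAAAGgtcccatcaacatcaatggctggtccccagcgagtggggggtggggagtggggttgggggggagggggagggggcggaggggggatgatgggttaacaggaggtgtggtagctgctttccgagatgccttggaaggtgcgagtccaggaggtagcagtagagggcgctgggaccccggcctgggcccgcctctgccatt
Wnt2: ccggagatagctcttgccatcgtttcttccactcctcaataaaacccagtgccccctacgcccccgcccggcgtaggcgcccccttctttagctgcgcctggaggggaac
Fzd4: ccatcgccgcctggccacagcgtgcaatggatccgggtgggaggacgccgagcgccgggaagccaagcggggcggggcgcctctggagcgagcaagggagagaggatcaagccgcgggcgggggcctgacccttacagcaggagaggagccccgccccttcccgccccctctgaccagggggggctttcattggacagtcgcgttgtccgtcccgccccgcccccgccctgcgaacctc
All 5 are rich in G and C, from 62.4% to 83.7%. Searches on both strands used the CREB core TGACG, the full CREB site TGACGTCA that contains it, the AP-1 motif TGANTCA, the SOX core ACAAT and the TCF/LEF core CTTTGA. In the stretches printed, Ror1 alone held matches, both on the minus strand: CGTCA at base 34 and TCAAAG at base 46. Over whole windows of 250 bases before to 50 after the start, 26 windows of 23 members were listed, and 4 held TGACG, 0 held TGACGTCA, 2 held TGANTCA, 3 held ACAAT and 4 held CTTTGA. Among all 32851 listed windows the shares were 20.8%, 1.79%, 7.81%, 31.0% and 16.0%. The median G and C content was 71.5% in the members' windows and 52.7% in all, so base composition differs, and a match is a description of letters only.

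Several ligand genes are neighbors: Wnt6 and Wnt10a lie 6.19 kb apart on chromosome 1, Wnt10b and Wnt1 11.7 kb on chromosome 15, and Wnt3a and Wnt9a 16.2 kb and Wnt9b and Wnt3 24.3 kb apart on chromosome 11. Of these pairs only Wnt6 and Wnt10a had both genes tested; Wnt10a was called and Wnt6 was not.

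Other genes of the pathway were read from lists of the same fit. Of 4 genes for secretion and inactivation, Notum, an enzyme that removes the lipid from Wnts, had 1615, 2125 and 2419 counts in GFP-only cells, 116, 133 and 187 in double-positive and 176, 456 and 260 in RFP-only cells. Notum was lower by -3.82 ± 0.37 in double-positive (adjusted p = 0.00029) and by -2.87 ± 0.37 in RFP-only cells (adjusted p = 0.000375). Trabd2b, a protease that cuts Wnts, was higher in double-positive cells, by 1.17 ± 0.29 over GFP-only (adjusted p = 0.0294) and 1.81 ± 0.29 over RFP-only (adjusted p = 0.00626). Wls and Porcn, needed for secretion, were not called. The count for double-positive over GFP-only cells was 2, where 8.29% of all tested genes were called, and 1 without GFP-only litter 1 or double-positive litter 2 or 5. It was 1 for RFP-only over GFP-only and 1 for double-positive over RFP-only cells, beside 20.3% and 2.85% of all tested genes.

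Of 9 other Wnt-binding or Frizzled-turnover genes, 2 were higher in RFP-only cells, relative to GFP-only cells, a share near the 20.3% of all tested genes called. Gpc4, a cell-surface glypican, was higher by 1.41 ± 0.28 (adjusted p = 0.0047) and stood lower in double-positive cells when these were set against RFP-only cells (-1.25 ± 0.28, adjusted p = 0.0369). Musk, the kinase of the nerve-muscle synapse, was higher by 4.24 ± 1.13 (adjusted p = 0.0216), with 61.7, 215 and 209 counts in RFP-only litters 1, 2 and 5, where muscle genes summed to 7418, 29944 and 24085. Of the 2 calls over GFP-only cells 1 was left without GFP-only litter 1 or RFP-only litter 2 or 5. Double-positive against RFP-only cells gave a single call, where 2.85% of all tested genes were called. It was lost without double-positive litter 1 or 5 or any 1 RFP-only library, and 3 genes were called without GFP-only litter 5. With the litter as a block Musk was also lower there (adjusted p = 0.0118).

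The 17 genes of the beta-catenin arm held 3 that moved, with 2 called in each comparison with GFP-only cells. Of all tested genes 20.3% were called for RFP-only and 8.29% for double-positive against GFP-only cells. Lef1, a partner of beta-catenin at target genes, had 3587, 2497 and 2342 counts in GFP-only cells, 674, 444 and 919 in double-positive and 449, 512 and 493 in RFP-only cells, so GFP-only libraries stood above all others. It was lower by -2.08 ± 0.29 in double-positive (adjusted p = 0.00221) and by -2.51 ± 0.29 in RFP-only cells (adjusted p = 0.0002). Tcf7, of the same family, was lower in double-positive cells than in the GFP-only group (-3.04 ± 0.57, adjusted p = 0.0089), while Tcf7l2 was higher in RFP-only cells (1.12 ± 0.28, adjusted p = 0.0156). For double-positive over GFP-only cells Tcf7l2 was at 0.88 ± 0.28 (adjusted p = 0.0758; 0.0462 with the litter as a block). By limma 0 genes of this list were called between double-positive and RFP-only cells, with 1 gene at an unadjusted p under 0.05, while edgeR called 0, DESeq2 called 1 and limma without GFP-only litter 5 called 1. For RFP-only over GFP-only cells the count of 2 became 4 without GFP-only litter 5 and 1 without RFP-only litter 1.

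Of 7 feedback genes of beta-catenin signaling, 5 were higher in RFP-only cells when set against GFP-only cells, where 11.8% of all tested genes were higher: Lgr5 by 3.89 ± 0.38 (adjusted p = 6.46e-05), Tnfrsf19 by 2.22 ± 0.27 (adjusted p = 0.000246), Nkd2 by 2.42 ± 0.41 (adjusted p = 0.002), Apcdd1 and Sp5. In double-positive against GFP-only cells 1 of 7 was called, Lgr5, at 3.33 ± 0.38 (adjusted p = 0.000727). Tnfrsf19, Sp5, Nkd2 and Nkd1 were lower in double-positive than RFP-only cells, 4 of 7 beside 1.05% of all tested genes, a count that was 1 or 2 without any 1 double-positive or RFP-only library. With the litter as a block Nkd1 was lost (adjusted p = 0.0623) and Apcdd1 was called (adjusted p = 0.0498). Axin2, the most used readout of the pathway, had 142 to 144 counts in the GFP-only libraries, 116 to 187 in double-positive and 228 to 350 in RFP-only cells. Its RFP-only libraries were above the other 6, at 0.91 ± 0.33 over GFP-only cells (adjusted p = 0.0793). Pathway genes kept in other lists did not all rise in that comparison: Notum (-2.87 ± 0.37) and Lef1 (-2.51 ± 0.29) were called lower. Tcf7, Znrf3 and Rnf43 were at -1.17 ± 0.57, -0.32 ± 0.36 and -0.08 ± 1.86 and were not called, while Tcf7l2 was called higher (1.12 ± 0.28). The 5 calls describe this list of 7 genes and not the pathway as a whole. Apcdd1, Nkd1, Nkd2 and others of this list are known as targets in some tissues and not in all, and tendon, muscle and endothelial sums were also higher in RFP-only than in GFP-only libraries; their part was not tested.

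**Figure D5:**
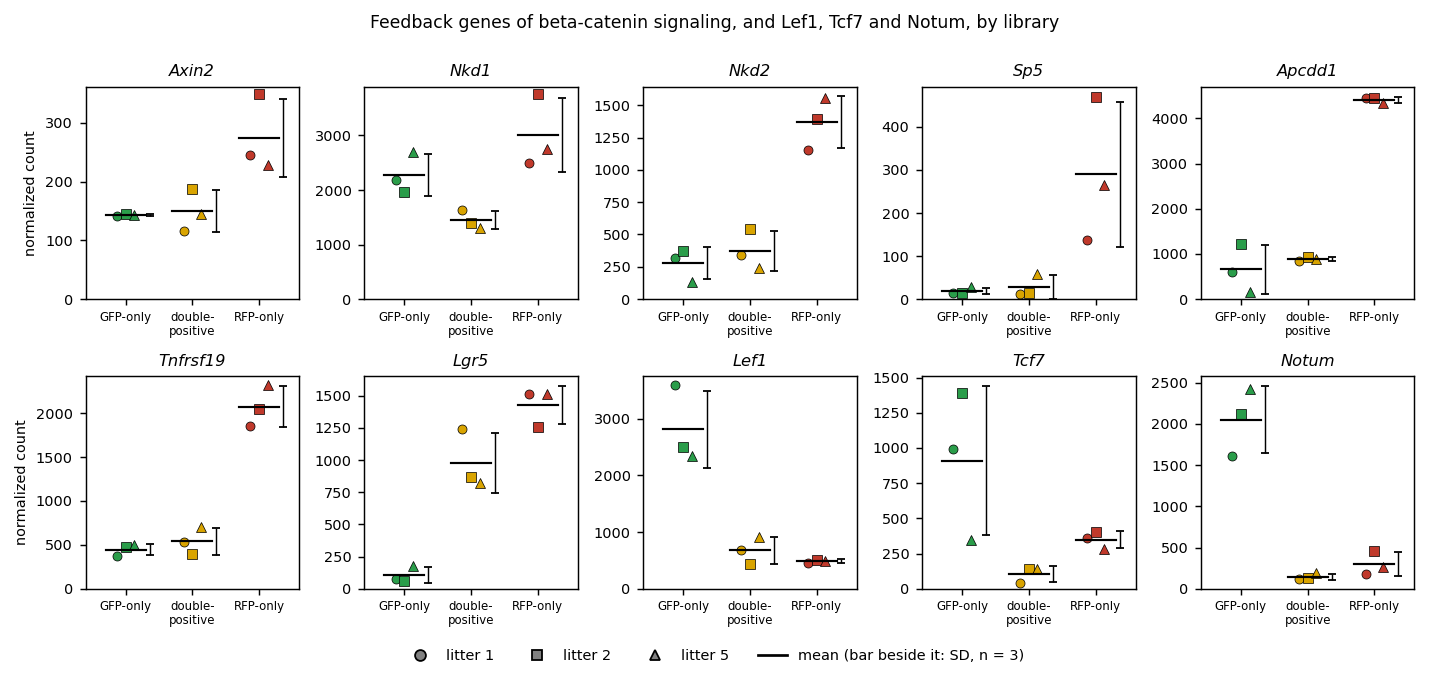
Normalized counts of the 7 feedback genes and of Lef1, Tcf7 and Notum on linear axes from 0; points are libraries marked by litter, lines are means and bars are SDs (n = 3), clipped at 0. Tnfrsf19 runs from 1853 to 2321 in RFP-only cells and does not exceed 703 elsewhere, while Lef1 and Notum are highest in GFP-only cells.

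Of 14 genes of the planar cell polarity arm, which orients cells and is reached through Frizzleds and Ror2, 4 were called between RFP-only and GFP-only cells, a share near the 20.3% of all tested genes. Celsr2, Scrib and Prickle2 were higher, by 5.02 ± 1.04 (adjusted p = 0.00623), 1.22 ± 0.34 (adjusted p = 0.0257) and 2.12 ± 0.63 (adjusted p = 0.0353), and Daam2 was lower by -1.58 ± 0.31 (adjusted p = 0.00462). In double-positive cells Celsr2 was higher than in GFP-only cells (3.77 ± 1.04, adjusted p = 0.0487), on 30.7, 439 and 72.5 counts against 27.3, 1.22 and 5.43, and Daam2 was higher than in RFP-only cells (1.46 ± 0.31, adjusted p = 0.0312). The Celsr2 call in double-positive cells was lost with the litter as a block (adjusted p = 0.0702) and without any 1 library except GFP-only and double-positive litter 1, and the Daam2 call without any 1 double-positive library or RFP-only litter 2 or 5. The list held 1 call in each comparison of double-positive cells, where 8.29% (against GFP-only) and 2.85% (against RFP-only) of all tested genes were called. The 4 calls of RFP-only against GFP-only cells became 2 without RFP-only litter 2 or 5. Prickle2 was lost there with the litter as a block (adjusted p = 0.0502).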

How the data were processed

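Per the labels' protocols, poly(A) RNA of sorted cells went into bulk libraries with the Nextera XT kit. FastQC, STAR, Salmon and DESeq2 and the mm10 build stand in the submitters' processing notes, with neither versions nor roles; the counting, gene models and strand setting are not given in the sources used here. The deposited signal is a normalized count per gene and library, and dividing it by each library's smallest step gave whole reads for 100% of values, within 0.001 of a read, and from them the totals.

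Symbols, coordinates and exon lengths came from GENCODE M21 (GRCm38, the assembly of mm10); 54495 identifiers matched and 37 did not. Groups are the sorted populations that the labels name. The main test, two-sided, was limma 3.58.1 (R 4.3.3) on log2(normalized count + 1), its variance prior following a mean-variance trend, for genes with a mean of at least 10, with Benjamini-Hochberg adjustment over all of them. Replicates are separate litters, and counting noise alone did not account for the differences within any replicate pair (lowest chi-square per degree of freedom 42.5), so n is 3 per group.

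The members and the gene lists were chosen with earlier results of these data known. All 33 members are accounted for, with library values for those called at least once; of the pathway lists the text names called genes with the smallest adjusted p. The list of secretion genes has 5 symbols, of which 4 were matched. RefSeq's promoter table (GRCm38.p6) held 23 members; Wnt5a, Wnt7b, Wnt8a, Wnt10a, Fzd2, Fzd3, Fzd6, Fzd8, Lrp5 and Lrp6 had no entry.

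The litter numbers pair the libraries, since the labels give same-numbered libraries the same litter and isolation date. Deviations from the group means had a median correlation of 0.103 over 9 pairs of the same litter (-0.0353 to 0.149) and -0.0409 over 18 pairs of different litters. The fit without the litter was the main one. Alternatives were other pseudocounts (0.5 and 5) and filters (50 and none), TMM and quantile scaling, a robust prior, no trend, the litter as a fixed or random block, a fit to 2 populations, edgeR 4.0.16 quasi-likelihood and DESeq2 1.42.0 on recovered reads, and each library left out.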

Additional observations from a re-analysis of the deposited data

How the results depend on the processing

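Of 1767 values of single members under 22 alternatives, 1646 kept their call, 96 lost one, 25 gained one and 0 called values changed sign, while 48 uncalled values did. The numbers of members called moved by over 1.5 times as follows. For double-positive against GFP-only cells 5 became 3 with no filter, 2 without the trend, 3 with only these populations fitted, 3 by edgeR and 10 by DESeq2, and 3 to 6 with a library left out. For RFP-only against GFP-only cells 13 became 6 to 11 with a library left out. For double-positive against RFP-only cells 4 became 2 without the trend, 7 with only these populations fitted and 1 to 5 with a library left out. Among all genes, 1472 calls of double-positive against GFP-only cells became 697 with only these populations fitted, 2780 by DESeq2 and 637 to 1553 with a library left out. The 3601 calls of RFP-only against GFP-only cells became 2190 to 3716 with a library left out. The 506 of double-positive against RFP-only cells became 1008 with only these populations fitted, 1152 by DESeq2 and 217 to 1050 with a library left out. The cause of these shifts was not tested. Fits that leave libraries out also rest on fewer samples.

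With the litter as a fixed replicate block, 5, 12 and 4 members were called, and beside the calls of Wnt2, Fzd8 and Fzd6 given with their values the paired fit changed no other call of a member. With the litter as a random block the counts were 6, 13 and 4, and Wnt5b became a call for double-positive over GFP-only cells (adjusted p = 0.0493). TMM and quantile scaling moved the median of all genes by at most 0.0781 on the log2 scale. With the longest transcript in place of all exons, 4 of 87 shares per length moved by more than 1 SD.

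Depth limits the 6 untested ligands and Wnt10a most, where a few reads per library decide a value. With 3 libraries a group, differences that missed the threshold are not shown to be absent. Pathway lists were run under the alternatives after the data were seen, except for the litter block.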
